A study of Caenorhabditis elegans with 2 samples.

Results

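The mir-72, mir-73 and mir-74 microRNAs (miRNAs) of Caenorhabditis elegans and their relatives mir-266 and mir-269 were followed in whole worms. The members were taken by their miRBase names (cel-miR-72, cel-miR-73, cel-miR-74, cel-miR-266 and cel-miR-269, where cel stands for the species), with every arm of these 5 hairpins, which gave 8 of the 375 mature miRNA loci in the deposited table. Whole worms of the wild-type strain N2, of an age given as Day 1, had received enoxacin in the first group and its vehicle in the second. Enoxacin, an antibiotic of the fluoroquinolone class, is known from mammalian cells to promote miRNA processing. Its dose is not stated in the labels. Each group had 1 small RNA library, so nothing could be tested between them, and each interval below is a 95% interval of the counting error alone.

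A miRNA is cut from a hairpin precursor by Drosha and then Dicer, and 1 strand of the resulting duplex, the 5p or the 3p arm, is usually kept by an Argonaute protein. The kept strand finds its target mRNAs mainly through its seed, bases 2 to 8. The abundant arms of mir-72, mir-73 and mir-74 are grouped as a family because they share a seed, which is also that of the mammalian miR-31. In mir-72 that strand lies in the 5p arm, and in mir-73 and mir-74 it lies in the 3p arm. The opposite arms do not belong to the seed family and are listed here as its minor arms.

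The authors' library totals were 8787665 reads for enoxacin and 10698845 reads for vehicle. Mature miRNA loci took 3.78% of the enoxacin reads and 3.74% of the vehicle reads. Levels are given in RPM (the reads of a locus scaled to its library's total), in which 1 read was worth 0.114 RPM in enoxacin and 0.0935 RPM in vehicle. A minimum of 20 reads, summed over both libraries, was set for a comparison, and 152 loci reached it, among them 6 of the 8 family loci. To count as higher or lower in enoxacin, a locus had to pass 1.5-fold with a counting interval that excluded 1. The median ratio of enoxacin to vehicle over the 152 loci was 1.09.

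In the genome build of the table, taken as ce10, the family lay on 3 chromosomes, always on the plus strand. miR-72-5p (chromosome II, 2452859 to 2452881) and miR-72-3p (2452903 to 2452924) were separated by 21 bases, and the nearest other hairpin of the table was 167970 bases away. miR-73-5p (chromosome X, 2368779 to 2368802) and miR-73-3p (2368818 to 2368840) were followed after 213 bases by miR-74-5p (2369054 to 2369076) and miR-74-3p (2369095 to 2369116). Another hairpin, mir-75, began 3351 bases further on. mir-73, mir-74 and mir-75 thus lay on 1 strand within 10000 bases, and no other hairpin lay that close to a family member. miR-266 (chromosome X, 3755156 to 3755175) and miR-269 (chromosome IV, 273912 to 273931) are listed with 1 arm each.

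In the WBcel235 annotation, searched by hairpin name, mir-72, mir-73, mir-266 and mir-269 overlapped no other annotated gene. mir-74 overlapped 2 non-coding RNA genes, T24D8.14 on its own strand and T24D8.16 on the opposite strand. Within that annotation T24D8.14 covered all 23 bases of miR-74-5p and did not reach miR-74-3p. T24D8.16 covered all of miR-74-5p and 20 of the 22 bases of miR-74-3p. The labels do not state whether reads were counted by strand, so reads of miR-74-3p and of the antisense T24D8.16 cannot be told apart. The same holds for miR-74-5p and T24D8.16. Reads of miR-74-5p and of T24D8.14 lie on the same strand, so counting by strand would not separate them. These limits also apply to the summed reads of mir-74. Overlap with a non-coding RNA gene was not confined to mir-74. Of the 204 hairpins found by name, 16 overlapped a non-coding RNA gene on their own strand and 26 overlapped one on the opposite strand. Overlap on both strands was found for 1 hairpin alone, which was mir-74.

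The family as a whole was nearly equally abundant in both libraries, while its smallest abundant member was higher in enoxacin. All 8 loci together had 9323 reads (1061 RPM) in enoxacin and 11388 reads (1064 RPM) in vehicle, a ratio of 0.997 (0.970 to 1.02). They made up 2.80% of all miRNA reads in enoxacin (2.75 to 2.86%) and 2.84% in vehicle (2.79 to 2.89%). Of the 6 compared loci, 1 was higher in enoxacin (miR-74-3p), 0 were lower and 5 were neither. Over all 152 compared loci 13.2% were higher and 7.89% were lower, so a count of 1 in 6 is near that background. The median ratio of the 6 loci, which include the sparse minor arms, was 1.196, against 1.09 over all compared loci. For the 3 abundant arms alone the median log2 ratio was 0.14, near the 0.13 of all compared loci. The sum was set by miR-72-5p, and without that locus the family had 1381 reads in enoxacin and 1347 in vehicle, a ratio of 1.248 (1.16 to 1.35).

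**Figure D1:**
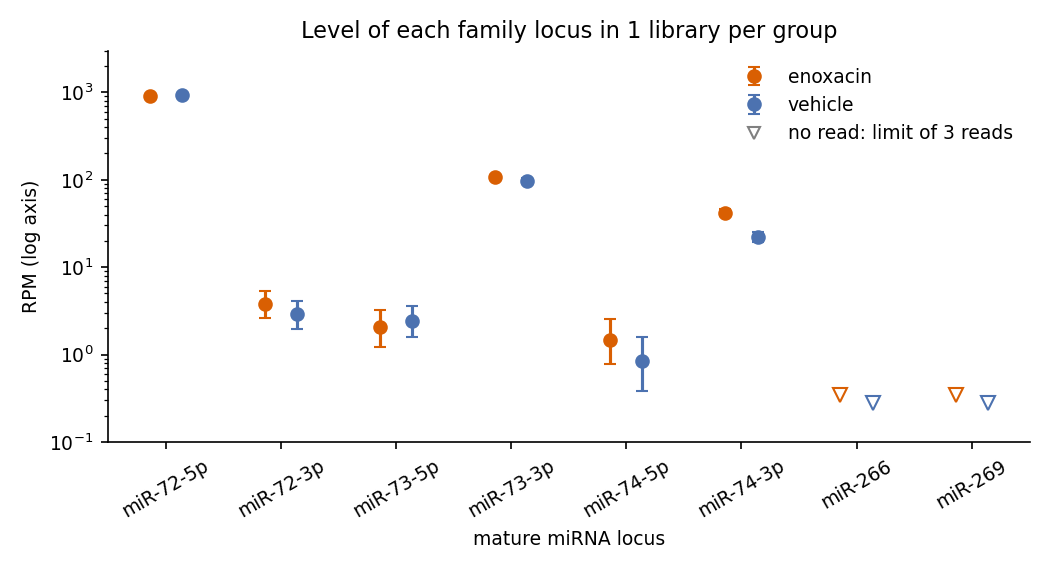
Level of each family locus in RPM on a log axis, with enoxacin left of vehicle and 1 library per group. Bars are exact 95% Poisson intervals of the count, and open triangles mark the limit of 3 reads for loci with no read. miR-72-5p stands at 904 and 939 RPM in the 2 libraries, and miR-74-3p is the locus whose intervals do not overlap and whose ratio passed 1.5-fold.

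miR-72-5p carried most of the family. It had 7942 reads in enoxacin and 10041 in vehicle, which were 904 RPM (884 to 924) and 939 RPM (920 to 957). It was the 8th most abundant of all loci in enoxacin and the 7th in vehicle. Its ratio of 0.963 (0.935 to 0.992) lay slightly below 1, with an interval that excluded 1, and well inside 1.5-fold. This value depended on the scaling. Over the scalings and pseudocounts run, the ratio of miR-72-5p ranged from 0.870 to 0.963, which reaches below the counting interval. Its call did not change. Under the library totals, the difference of its log2 ratio from the median of all compared loci was -0.18. Its share of family reads was 85.2% in enoxacin (84.4 to 85.9%) and 88.2% in vehicle (87.6 to 88.8%), so that these intervals did not overlap.

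miR-72-3p, the minor arm of this hairpin, had 33 reads in enoxacin and 31 in vehicle (3.76 and 2.90 RPM). Its ratio of 1.30 had an interval from 0.769 to 2.19, so a difference was not detectable at this depth. The 5p arm took 99.6% of mir-72 reads in enoxacin (99.4 to 99.7%) and 99.7% in vehicle (99.6 to 99.8%). mir-72 was thus read almost wholly from its 5p arm in both libraries, and the share of that arm differed by less than counting error.

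miR-73-3p, the next in abundance, had 946 reads in enoxacin and 1042 in vehicle, or 108 RPM (101 to 115) and 97.4 RPM (91.6 to 103). Its ratio was 1.11 (1.01 to 1.21), which lay close to the median of all compared loci and stood at position 76 of 152 from the highest. The excess over 1 depended on the scaling, with a log2 ratio of 0.14 under the library totals and -0.0014 under median-of-ratios scaling. miR-73-5p had 18 reads in enoxacin and 26 in vehicle, a ratio of 0.843 (0.435 to 1.598). The minor 5p arm took 1.87% of mir-73 reads in enoxacin (1.11 to 2.94%) and 2.43% in vehicle (1.60 to 3.55%), and these intervals overlapped.

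miR-74-3p was the locus of the family that was counted as higher. It had 371 reads in enoxacin and 239 in vehicle, which were 42.2 RPM (38.0 to 46.7) and 22.3 RPM (19.6 to 25.4). The ratio was 1.89 (1.60 to 2.23), at position 15 of 152 from the highest, and its log2 ratio of 0.92 lay 0.79 above the median of all compared loci. It was counted as higher under each of the other scalings run, with ratios from 1.71 to 1.89, but not at a threshold of 2-fold. The minor arm miR-74-5p had 13 reads in enoxacin and 9 in vehicle. Its ratio of 1.76 was of similar size, but the interval from 0.695 to 4.66 included 1.

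Loci as abundant as miR-74-3p often passed the criterion. Of 15 loci outside the family with summed reads within 2-fold of its 610, 4 (26.7%) were counted as higher and 3 (20%) as lower. Their median ratio was 1.27, and 2 of the 15 had a higher ratio than miR-74-3p. Among all 93 loci with at least 100 reads, 16.1% were higher and 6.45% were lower.

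**Figure D2:**
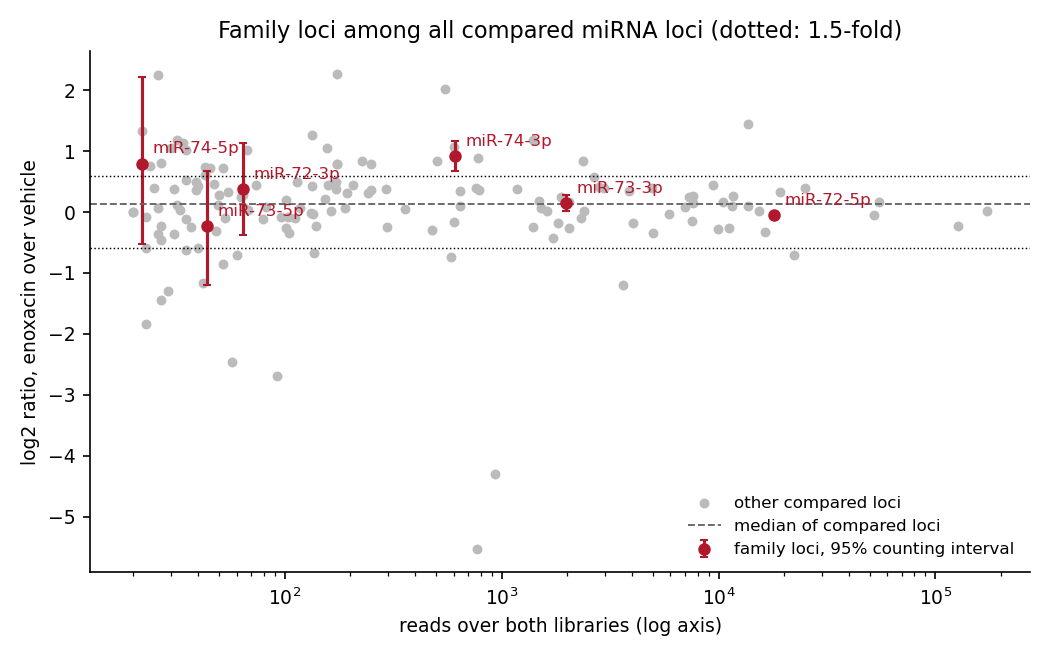
The log2 ratio of enoxacin over vehicle for each of the 152 compared loci, against the reads over both libraries on a log axis. Red points are the 6 compared family loci with 95% counting intervals, dotted lines mark 1.5-fold and the dashed line the median of all loci. miR-72-5p and miR-73-3p lie near the median line, miR-74-3p lies above the upper dotted line, and the 3 minor arms have wide intervals.

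The order of levels within the family was the same in both libraries. miR-72-5p came first, then miR-73-3p, miR-74-3p, miR-72-3p, miR-73-5p and miR-74-5p. The level of miR-72-5p was 8.40 times that of miR-73-3p in enoxacin and 9.64 times in vehicle, and the same per base of locus length. The level of miR-73-3p was in turn 2.55 times that of miR-74-3p in enoxacin and 4.36 times in vehicle. Per base of locus length these were 2.44 and 4.17 times. The 3 abundant arms thus stood closer together in enoxacin. Among the minor arms the counting intervals of neighbours in this order overlapped in both libraries, those of miR-72-3p with miR-73-5p and those of miR-73-5p with miR-74-5p. Those of miR-72-3p and miR-74-5p did not, at 2.58 to 5.27 against 0.788 to 2.53 RPM in enoxacin and 1.97 to 4.11 against 0.385 to 1.60 RPM in vehicle. Together the 3 minor arms held 0.686% of family reads in enoxacin (0.529 to 0.876%) and 0.580% in vehicle (0.449 to 0.737%).

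The balance between members was then compared within each library, where the scaling to library totals cancels. For each pair the ratio of ratios is the first miRNA's ratio of enoxacin to vehicle over that of the second. Among the abundant arms, miR-74-3p had a ratio of ratios of 1.96 (1.66 to 2.33) against miR-72-5p and 1.71 (1.42 to 2.07) against miR-73-3p. miR-73-3p had 1.15 (1.04 to 1.26) against miR-72-5p. All 3 intervals excluded 1, so the composition of the family differed between the libraries by more than counting error. The arms of single hairpins gave no such difference, with 1.35 (0.798 to 2.27) for miR-72-3p against miR-72-5p, 0.763 (0.391 to 1.46) for miR-73-5p against miR-73-3p and 0.931 (0.362 to 2.51) for miR-74-5p against miR-74-3p. The minor arms held few reads, and these 3 intervals are wide.

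mir-73 and mir-74, which lie 213 bases apart on 1 strand, did not keep the same proportion. With both arms summed, mir-74 had 384 reads in enoxacin and 248 in vehicle, a ratio of 1.89 (1.60 to 2.22). mir-73 had 964 reads in enoxacin and 1068 in vehicle, a ratio of 1.10 (1.01 to 1.20). mir-74 thus made up 28.5% of the reads of this pair in enoxacin (26.1 to 31.0%) and 18.8% in vehicle (16.8 to 21.1%), and these intervals did not overlap.

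miR-75-3p, the next locus along the same strand and no member of the seed family, had 146 reads in enoxacin and 103 in vehicle (16.6 and 9.63 RPM). Its ratio of 1.73 (1.33 to 2.24) was counted as higher and lay near that of miR-74-3p, with a ratio of ratios of 1.10 (0.801 to 1.49) for miR-74-3p against miR-75-3p. miR-73-3p against miR-75-3p had 0.641 (0.485 to 0.843), which excluded 1. Of the 3 abundant arms in this stretch, miR-73-3p was therefore the one near the median of all loci. miR-75-5p had 1 read in enoxacin and 0 in vehicle and was not compared.

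**Figure D3:**
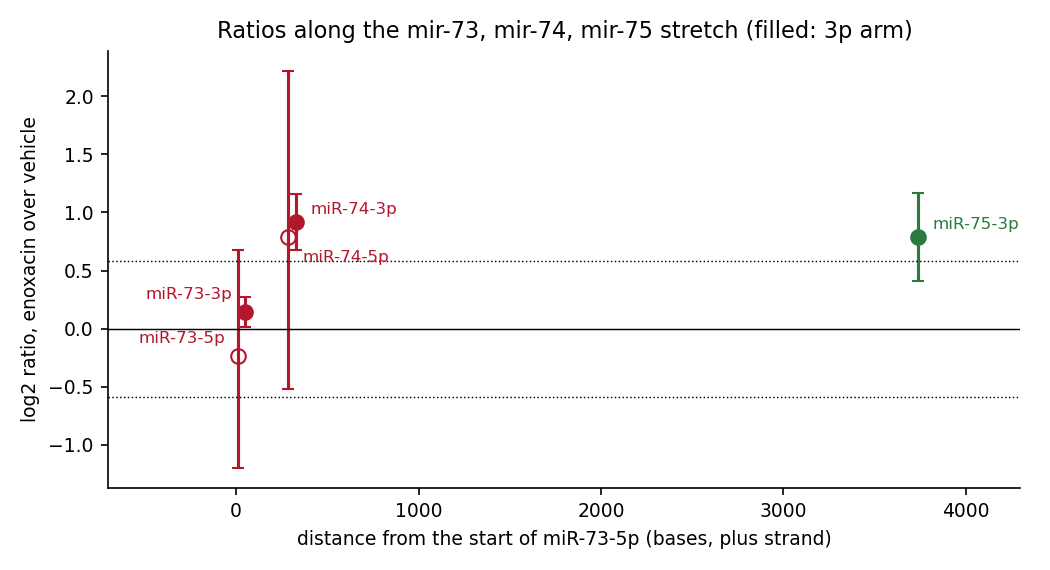
The log2 ratio of enoxacin over vehicle along the stretch that holds mir-73, mir-74 and mir-75, against the distance in bases from the start of miR-73-5p. Filled points are 3p arms, open points are 5p arms, bars are 95% counting intervals and dotted lines mark 1.5-fold. The 3p arms of mir-74 and mir-75 lie above the upper dotted line and miR-73-3p lies below it.

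Other close neighbours give a scale for this difference. The table held 17 pairs of adjacent hairpins on 1 strand that lay within 1000 bases and had at least 20 reads each. The ratios within a pair differed by a median of 1.21-fold over all 17 pairs, mir-73 and mir-74 included. The narrowest difference was 1.01-fold. The widest, 1.71-fold, was that of mir-73 and mir-74 itself, followed by mir-250 and mir-61 with 1.56-fold and by mir-65 and mir-66 with 1.54-fold. These values are for both arms summed, and no interval was computed for their fold differences. The counting interval of miR-74-3p against miR-73-3p, for the 3p arms alone, ran from 1.42 to 2.07. It covers the values of those next pairs. As far as the 3p arms can show, the place of mir-73 and mir-74 at the top is not separated from those pairs by counting error.

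**Figure D4:**
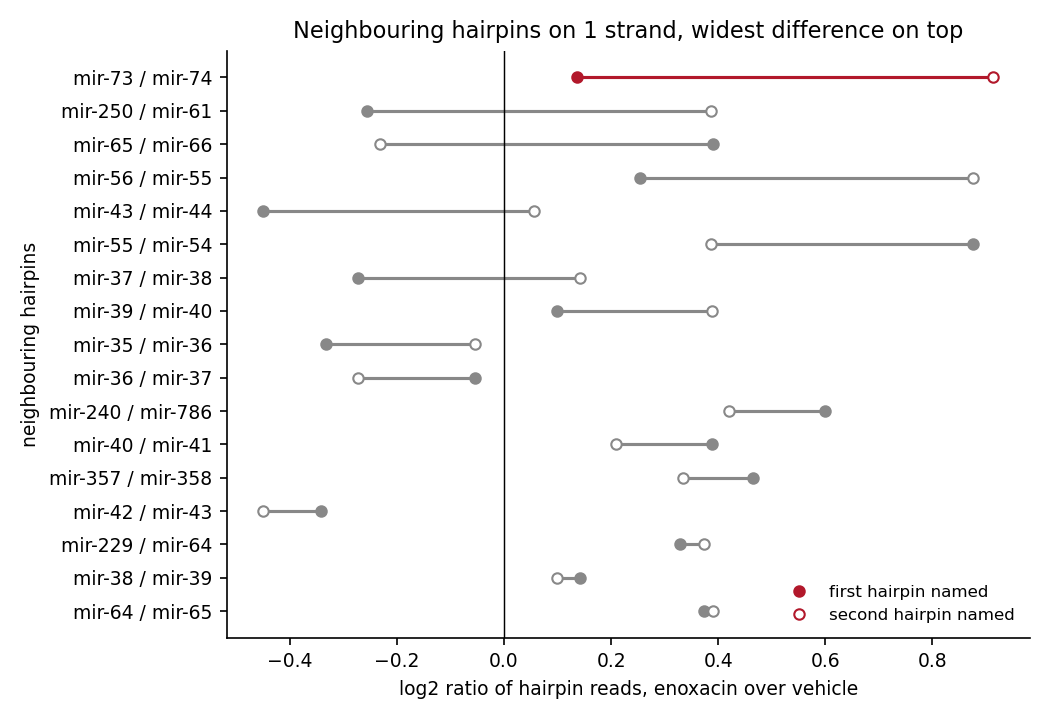
The log2 ratio of enoxacin over vehicle, on the horizontal axis, for the summed reads of both hairpins in each of 17 adjacent pairs, 1 pair per row. Filled points are the hairpin named first, the one at the lower coordinate, and open points the other. The red row, mir-73 and mir-74, has the widest gap, 0.78 on the log2 scale, against a median of 0.28 over all 17 pairs, itself included.

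miR-266 and miR-269, the remaining relatives, had no read in either library. Counts of 0 allow up to 0.341 RPM in enoxacin and 0.280 RPM in vehicle for each of them, so no ratio can be given. For scale, that limit lies below the level of miR-74-5p, the rarest detected family locus, at 1.48 RPM in enoxacin and 0.841 RPM in vehicle. Both are listed with 20 bases and without an arm suffix. Such entries were often without reads. Of the 15 loci of 20 bases 11, and of the 71 loci without an arm suffix 39, had 0 reads in both libraries, against 31.5% of all 375 loci. These counts include miR-266 and miR-269 themselves.

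Loci outside the family with the most similar levels were found by distance in log2 RPM over the 2 libraries. Nearest to miR-72-5p were miR-35-3p, at 0.795-fold (0.770 to 0.820), and miR-229-5p, at 1.254-fold (1.22 to 1.29) of the vehicle level in enoxacin, so its neighbours in level lay on both sides of it in ratio. Nearest to miR-73-3p were miR-79-3p, with 976 reads in enoxacin and 1065 in vehicle, and miR-41-3p, with 926 and 954. Nearest to miR-74-3p were miR-238-3p, with 380 reads in enoxacin and 220 in vehicle, and miR-70-3p, with 301 and 205. The last 2 had ratios of 2.10 (1.78 to 2.49) and 1.79 (1.49 to 2.15). Because the neighbours were chosen by their levels in both libraries, ratios near that of the member follow from the choice. With 2 libraries, this likeness describes the levels alone.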

How the data were processed

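Small RNA libraries of 2 groups, 1 each, were compared. The authors deposited a raw read count per mature miRNA locus and library and RPM values, which equal each count divided by 1 fixed total per library. The deposited table also gives the RPM ratio and the log2 of that ratio, equal to those computed here without a pseudocount. The submitters' processing notes name Bowtie2, bedtools and ce10. The notes state no versions and no handling of strand or of reads with several matches. The deposited positions differ from WBcel235 for 7 of 8 family loci (by -16 to 5 bases), so that annotation was used by name only.

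Ratios used the library totals, with exact conditional binomial intervals (Clopper-Pearson, 95%). Log2 ratios, and the calls at 1.5-fold, used a pseudocount of 0.5 reads. RPM intervals are exact Poisson, shares exact binomial, and ratios of ratios exact conditional odds ratios. They cover counting error only and treat reads as independent molecules, which reads without molecular identifiers are not. A count of 0 was given a limit of 3 counts. Values were not divided by length except where said. The calling procedure was tested on simulated counts that held Poisson counting error alone. That simulation had no variation between libraries, so it cannot show how the calls would hold in further libraries.

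The members and lists were chosen with earlier results of these data known. Named loci were all family arms, loci within 10000 bases, and for family loci with 100 reads or more the 2 nearest in level. Mature sequences were not used here, so other holders of the seed were not searched for. The adjacent pairs, the loci within 2-fold of miR-74-3p and the counts of loci at 0 were chosen after the values were seen. Alternatives were other scalings, no minimum or one of 100 reads, a lower and a higher (2-fold) threshold, a pseudocount of 1, summed arms, the major arm only and the sum without miR-72-5p. Python 3.11.15 with numpy 2.4.6, pandas 2.3.3, scipy 1.17.1 and matplotlib 3.10.9, and R 4.3.3 with edgeR 4.0.16 (TMM), were used.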

Additional observations from a re-analysis of the deposited data

How the results depend on the processing

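No paired analysis was possible because each group had 1 library, so there was also no replicate to leave out. Median-of-ratios and TMM scaling moved all log2 ratios by -0.15 and -0.14. The calls of the 6 compared family loci were unchanged under the 5 other scalings and the pseudocount of 1 read. At a threshold of 2-fold, 0 family loci were higher, since miR-74-3p was below it, and 12 of all loci were. All loci counted as higher numbered 35 at the lower threshold and 13 with arms summed per hairpin, and those counted as lower numbered 7 with arms summed and 6 with a minimum of 100 reads, where fewer loci are compared. The log2 ratio of the summed family reads was -0.0047 in the main setting, -0.15 with median-of-ratios scaling, -0.14 with TMM and -0.076 with the sum of the miRNA table without its 3 most abundant miRNAs, a scaling chosen after seeing the data. It was 0.32 without miR-72-5p. The family median log2 ratio ran from 0.11 to 0.26 over its settings. Depth limits the 3 minor arms, with 22 to 64 reads each over both libraries, and miR-266 and miR-269, which had no read.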
